A study of Mus musculus with 34 samples.

Results

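The 7 genes described here, *Alx1*, *Alx4*, *Prrx1*, *Prrx2*, *Shox2*, *Twist1* and *Twist2*, encode transcription factors of the limb bud mesenchyme. They were chosen by symbol as the Alx, Prrx, Shox2 and Twist genes of the mesenchyme, and all 7 had a row among the 22040 genes of the mRNA-seq table. The libraries were made from limb buds of mouse embryos at E11.5, 3 from wild-type (WT) and 3 from *Hnrnpk* conditional knockout (CKO) embryos. In the CKO embryos, Prrx1-Cre removes exons of the floxed *Hnrnpk* alleles (*Hnrnpk* fl/fl), and Hnrnpk is a protein that binds cytosine patches in RNA and DNA. The Cre is driven by *Prrx1* regulatory sequence and is active in limb bud mesenchyme, earlier in the forelimb than in the hindlimb, and not in the ectoderm, the blood or the immigrating muscle precursors of the same buds. Whether the WT embryos carried a floxed allele or Cre, whether a library pooled several embryos, and whether forelimbs and hindlimbs were mixed are not given in the sources used here.

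Limb bud mesenchyme is the loose embryonic tissue that gives rise to the skeleton and connective tissue of the limb, under signals from the ectodermal ridge and from the posterior margin. Alx4, Prrx1, Prrx2, Shox2 and Alx1 are homeodomain proteins with a paired-like DNA-binding domain, which recognises sequences with a TAAT core. Twist1 and Twist2 are basic helix-loop-helix (bHLH) proteins, which bind E-boxes (CANNTG) as dimers, often with E proteins such as Tcf3, and the Id proteins sequester E proteins. Alx4 is known for its anterior expression in the limb bud and for the extra anterior digits of mice without it. Prrx1 and Prrx2 are known for their shared part in forming skeletal elements, and Shox2 for the growth of the proximal limb bones. Twist1 is known for limb bud outgrowth and the epithelial to mesenchymal transition.

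Sequence before the transcription start is shown for 3 of the genes, *Twist2*, its relative *Twist1* and *Shox2*, to give the sequence context of a gene with a low level and of 2 abundant ones. Each is the run of 250 bases before the RefSeq start on GRCm38.p6, read on the gene's own strand, and holds no exon of a protein-coding gene in GENCODE vM21. Capitals mark matches to CCCNCCC on either strand, a cytosine patch of the kind that Hnrnpk binds, with overlapping matches run together. The windows lie at chr1:91801211-91801460 on the plus strand for *Twist2*, at chr12:33957421-33957670 on the plus strand for *Twist1*, and at chr3:66981772-66982021 on the minus strand for *Shox2*.
*Twist2*: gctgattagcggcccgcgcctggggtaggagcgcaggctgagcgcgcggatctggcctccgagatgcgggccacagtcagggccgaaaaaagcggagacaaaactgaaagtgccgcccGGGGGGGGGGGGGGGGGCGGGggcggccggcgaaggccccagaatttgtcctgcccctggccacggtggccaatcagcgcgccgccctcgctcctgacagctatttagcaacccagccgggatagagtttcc
*Twist1*: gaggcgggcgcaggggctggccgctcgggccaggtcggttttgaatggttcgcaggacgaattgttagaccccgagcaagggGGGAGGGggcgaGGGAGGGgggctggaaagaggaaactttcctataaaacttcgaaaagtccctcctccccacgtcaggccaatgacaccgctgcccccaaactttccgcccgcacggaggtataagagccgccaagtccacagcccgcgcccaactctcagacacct
*Shox2*: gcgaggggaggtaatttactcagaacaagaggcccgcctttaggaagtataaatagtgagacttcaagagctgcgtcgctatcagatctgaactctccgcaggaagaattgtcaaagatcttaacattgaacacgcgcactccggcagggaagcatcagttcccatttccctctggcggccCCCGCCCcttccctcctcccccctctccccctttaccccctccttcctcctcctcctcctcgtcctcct

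The *Twist2* window held 12 matches to CCCNCCC, which overlap and make up 1 marked stretch. Most of this stretch is a run of guanines that is a cytosine run on the other strand. The *Twist1* window held 2 matches, in separate stretches, and the *Shox2* window 1. Matches were counted by start position, so overlapping ones count separately and the numbers do not compare separate patches. RefSeq windows were found for 5 of the 7 genes, and the windows of *Prrx1* and *Prrx2*, which overlap coding-gene exons and are not printed, held 5 and 4 matches. Of the 32851 windows of the same length over all genes, 44.8% held at least 1 match. No E-box was found in the windows of *Twist1*, *Twist2*, *Shox2*, *Prrx1* or *Prrx2*, against 66.2% of all windows with at least 1. The letters TAAT, on either strand and free to overlap the other motifs, were present 4 times before *Prrx1* and 1 time each before *Shox2* and *Twist2*, and 54.9% of all windows held them. The GC content of the windows was 68.8% for *Twist2*, 62.4% for *Twist1*, 70.0% for *Prrx2*, 55.6% for *Shox2* and 47.6% for *Prrx1*, with a median of 52.4% over all windows. These matches describe letters only, and the Hnrnpk CUT&RUN libraries of the study were not analysed here.

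The targeted gene, *Hnrnpk*, was lower in every CKO library. Its level, in FPKM (fragments per kilobase of gene, scaled to the size of the library), was 193, 195 and 185 over the 3 WT libraries, in the order of their replicate numbers, against 127, 142 and 135 over the CKO libraries. The mean was therefore 29.4% lower in CKO, with an adjusted *p* value of 0.33 by limma over all genes tested and 0.057 once the replicate number entered the model as a block. The value covers all exons of the gene, not the deleted exons alone, and incomplete deletion and RNA from cells without Cre cannot be told apart in it. In whole limb buds, fewer cells of a type and less RNA per cell cannot be told apart either, and this holds for each level given here.

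In WT limb buds, *Twist1* had the highest mean level of the 7 genes, with 103 ± 11.1 FPKM (SD, n = 3). *Shox2* followed with 84.6 ± 7.87 FPKM, and the ranges of these neighbours overlapped. *Prrx1* had 59.2 ± 4.13 FPKM and *Prrx2* 49.3 ± 4.80 FPKM, with ranges that did not overlap. *Alx4*, at 11.9 ± 3.81 FPKM, and *Twist2*, at 10.9 ± 2.57 FPKM, overlapped with each other and lay below *Prrx2*. *Alx1* was lowest, at 0.498 ± 0.326 FPKM. The order in CKO limb buds was the same, and again the ranges of *Twist1* and *Shox2* and those of *Alx4* and *Twist2* overlapped while the other neighbours were apart. In every library at most 4.80% of the genes of the table had a higher FPKM than *Prrx1*, *Prrx2*, *Shox2* or *Twist1*. By this rank among all genes of the table, RNA of these genes was abundant in all 6 libraries. For *Alx4* and *Twist2* between 13.9% and 29.6% of genes were higher, depending on the library, and for *Alx1* between 51.3% and 60.7%.

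**Figure D1:**
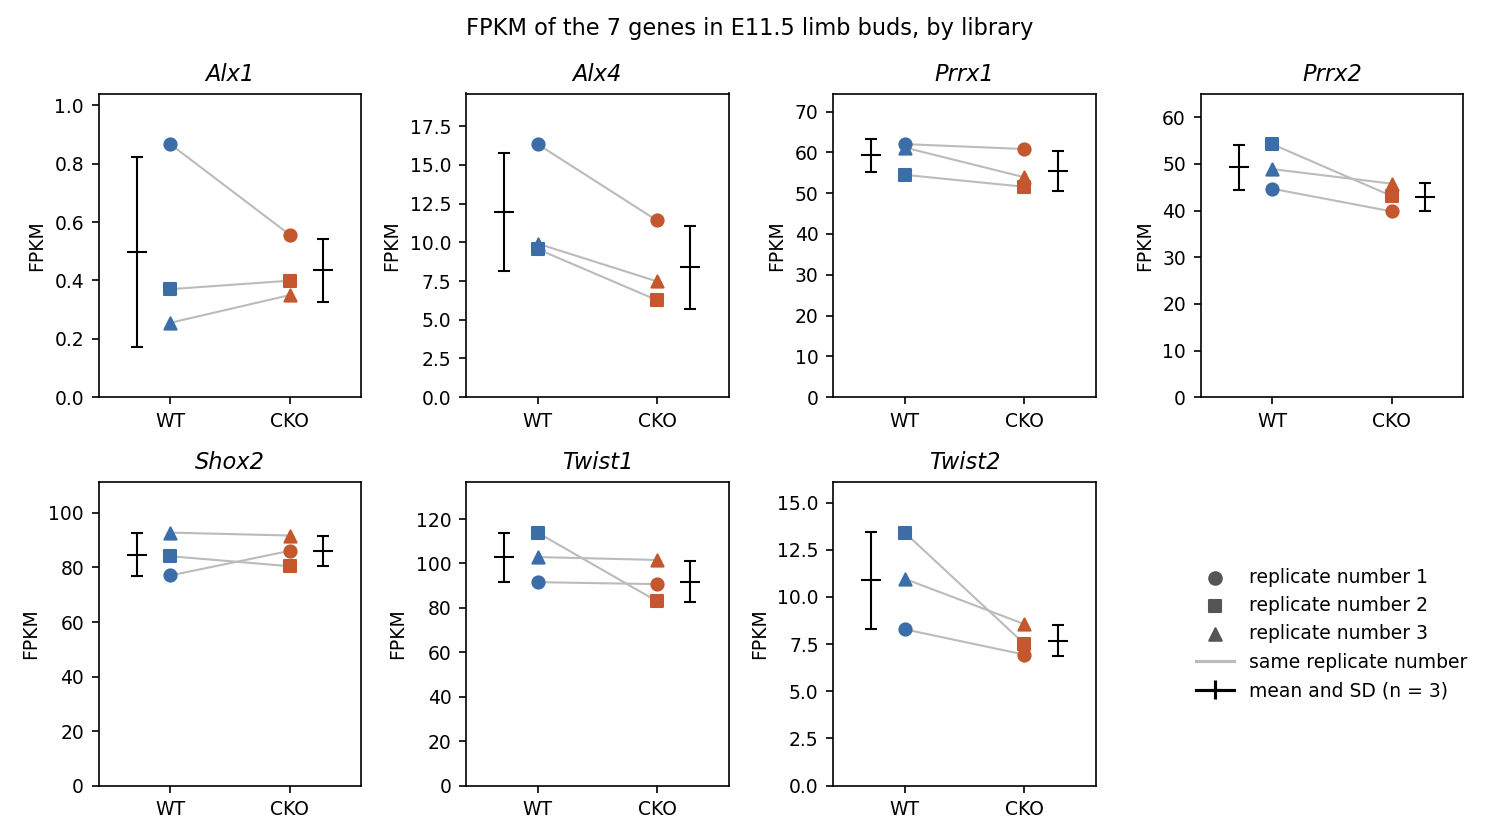
FPKM (vertical axes, each from 0) of the 7 genes in WT (blue) and CKO (orange) limb buds, with 1 point per library, marker shapes for replicate numbers, grey lines between libraries of the same number, and black bars for the mean and SD of 3 libraries. The lines of *Alx4* fall side by side from 16.3, 9.56 and 9.92 to 11.4, 6.27 and 7.48 FPKM, whereas those of *Shox2* stay between 77.1 and 92.8 FPKM.

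Over all genes, 12305 had a mean of at least 0.5 FPKM and were tested, and 6 of the 7 genes passed this limit, all but *Alx1*. In the model without the replicate block, none of the 6 passed an adjusted *p* value of 0.05, a threshold that 8 of the 12305 genes (0.065%) passed, and limma voom on reads recovered from the FPKM also called 0 of the 6. By limma, 1 of the 6, *Twist2*, had an unadjusted *p* value under 0.05 and was lower in CKO, as were 5.46% of all genes tested. In none of the 7 did the WT and CKO values lie apart without overlap, against 14.5% of all genes tested. With the replicate block, which compares libraries of the same number, a pairing that stands out in the data for number 1 only, *Alx4* passed the adjusted threshold and was lower, a result shared by 1.68% of genes. Within each replicate number, *Alx4*, *Prrx1*, *Prrx2*, *Twist1* and *Twist2* were lower in CKO, that is 5 of the 7 genes, against 21.3% of the genes tested. This count takes the sign alone and includes differences near 0, such as -0.01 and -0.02 for *Twist1* in numbers 1 and 3. The 7 genes were measured in the same 6 libraries, so they are not independent of each other. The median difference of the 6 genes was -0.18 on the log2(FPKM + 0.1) scale, and that of all genes tested was 0.0048. On this scale a fold change of a gene with a low level is understated.

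*Alx4* (ENSMUSG00000040310; GRCm38 chr2:93642384-93681339, plus strand) had 16.3, 9.56 and 9.92 FPKM in the WT libraries, in the same order, and 11.4, 6.27 and 7.48 FPKM in the CKO libraries. WT replicate 1 was high among WT libraries and CKO replicate 1 was high among CKO libraries, and CKO replicate 1 lay above WT replicates 2 and 3, so the groups overlapped. The mean was 29.8% lower in CKO, at 8.39 ± 2.69 against 11.9 ± 3.81 FPKM. Between 847 and 2079 reads stood behind each value. The log2 difference was -0.51 (95% interval -1.14 to 0.13, adjusted *p* = 0.70). Within numbers 1, 2 and 3 it was -0.51, -0.60 and -0.40, and with the replicate block the interval was -0.74 to -0.28 and the adjusted *p* value 0.027. An exact two-sided permutation test over the 6 libraries, which cannot give less than 0.1, gave *p* = 0.3. In the blocked model the call was lost without both libraries of number 2 (adjusted *p* = 0.14) or of number 3 (0.091) and kept without those of number 1 (0.0028), a check added after the values were seen. Without numbers 2, 3 and 1 in turn, that model called 89, 208 and 2280 of the 12305 genes. Without the block, leaving out WT replicate 1 gave a log2 difference of -0.26, leaving out CKO replicate 2 gave -0.32 and leaving out CKO replicate 1 gave -0.75, and none of these passed the threshold.

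By the mean absolute difference of centred log2 levels over the 6 libraries, the genes most like *Alx4* among those with a mean of at least 5 FPKM were *Gldc*, an enzyme of glycine breakdown, at 0.059, *Irx3*, a homeodomain factor, at 0.071, and *Slc9a5*, a sodium/proton exchanger, at 0.074. *Irx3* had 20.9, 13.9 and 12.5 FPKM in WT and 15.6, 7.79 and 9.46 FPKM in CKO. Both libraries of number 1 were highest in their groups, as in the *Alx4* profile by which *Irx3* was chosen. The other 5 tested genes described here were at 0.27 to 0.49 from *Alx4*.

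*Alx1* (ENSMUSG00000036602; chr10:102998707-103030215, minus strand), best known from the craniofacial mesenchyme, had 0.867, 0.370 and 0.255 FPKM in the WT libraries and 0.557, 0.399 and 0.350 FPKM in the CKO libraries. As for *Alx4*, replicate 1 was highest in both groups, but the CKO value was below the WT value in number 1 only and above it in numbers 2 and 3. Between 32 and 90 reads stood behind each value, and the log2 difference in a fit without the limit on low levels was -0.04 (95% interval -0.94 to 0.85), an interval that holds the difference fitted for *Alx4*. The exons of *Alx1* share 243 bases with *Gm17028*, a long non-coding RNA gene on the same strand.

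*Twist2* (ENSMUSG00000007805; chr1:91801461-91848028, plus strand) had 8.28, 13.4 and 11.0 FPKM in the WT libraries and 6.94, 7.52 and 8.56 FPKM in the CKO libraries. The CKO values lay close together at the lower end, and only CKO replicate 3 exceeded the lowest WT library, replicate 1. The mean was 29.5% lower in CKO, at 7.67 ± 0.819 against 10.9 ± 2.57 FPKM, from 399 to 1019 reads per library. The log2 difference was -0.48 (95% interval -0.91 to -0.04; limma unadjusted *p* = 0.035, adjusted *p* = 0.56, exact permutation *p* = 0.2). It was -0.25, -0.83 and -0.35 within numbers 1, 2 and 3. With the block the adjusted *p* value was 0.062 (interval -0.75 to -0.20), which missed the threshold. With the block on reads recovered from the FPKM (limma voom) it was 0.029, and from replicates 2 and 3 alone it was 0.0021 without a block. In these fits 567 of 11030 and 1851 of 12305 genes passed the adjusted threshold. By limma, the unadjusted *p* value rose to 0.13 when WT replicate 2 was left out, 0.090 for WT replicate 3, 0.076 for CKO replicate 1 and 0.079 for CKO replicate 2, with log2 differences of -0.31, -0.46, -0.41 and -0.47. Of the 3174 exon bases of *Twist2*, 1477 are shared with *Gm29100*, an antisense gene. The libraries were stranded, but whether the counting used the strand is not given in the sources used here.

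*Twist1* (ENSMUSG00000035799; chr12:33957671-33959829, plus strand) had 91.6, 114 and 103 FPKM in WT and 90.7, 83.0 and 102 FPKM in CKO limb buds. Number 2 held the highest WT and the lowest CKO library, and in numbers 1 and 3 the libraries were nearly level. The log2 difference within numbers 1, 2 and 3 was -0.01, -0.46 and -0.02, and the fitted value was -0.16 (95% interval -0.50 to 0.17, adjusted *p* = 0.84; 0.53 with the block).

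The share of *Twist2* in the summed FPKM of *Twist1* and *Twist2* was 8.29%, 10.5% and 9.63% in WT and 7.11%, 8.31% and 7.77% in CKO limb buds. CKO replicate 2 exceeded WT replicate 1 by a small margin, and the other CKO shares lay below all WT shares. The log2 ratio of *Twist2* to *Twist1* was lower by 0.32 in CKO (log2 ratio difference -0.32), and the exact permutation test gave *p* = 0.2. With the ratio of *Prrx2* to *Prrx1*, 2 such ratios were tested and the smallest *p* value that these could give was 0.1. Identical stretches between *Twist1* and *Twist2* transcripts reached 23 bases.

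The genes most like *Twist2* in their centred levels were *H1fx* and *H1f0*, which encode linker histones, at mean absolute log2 differences of 0.046 and 0.050, and *Morn2* at 0.052. *H1f0* had 139, 212 and 189 FPKM in WT and 107, 123 and 145 FPKM in CKO. Those most like *Twist1* were *Mpdu1*, *Oaf* and *Basp1*, at 0.022, 0.032 and 0.035. Among the 7 genes themselves the most alike were *Twist1* and *Prrx2*, at 0.061. *Twist2* was closer to *Prrx2* (0.17) and *Twist1* (0.17) than to *Alx4* (0.49), which shows 2 different patterns among the 2 genes with the largest differences: within each group, *Alx4* was highest in the library of number 1, and *Twist2* was lowest there.

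**Figure D2:**
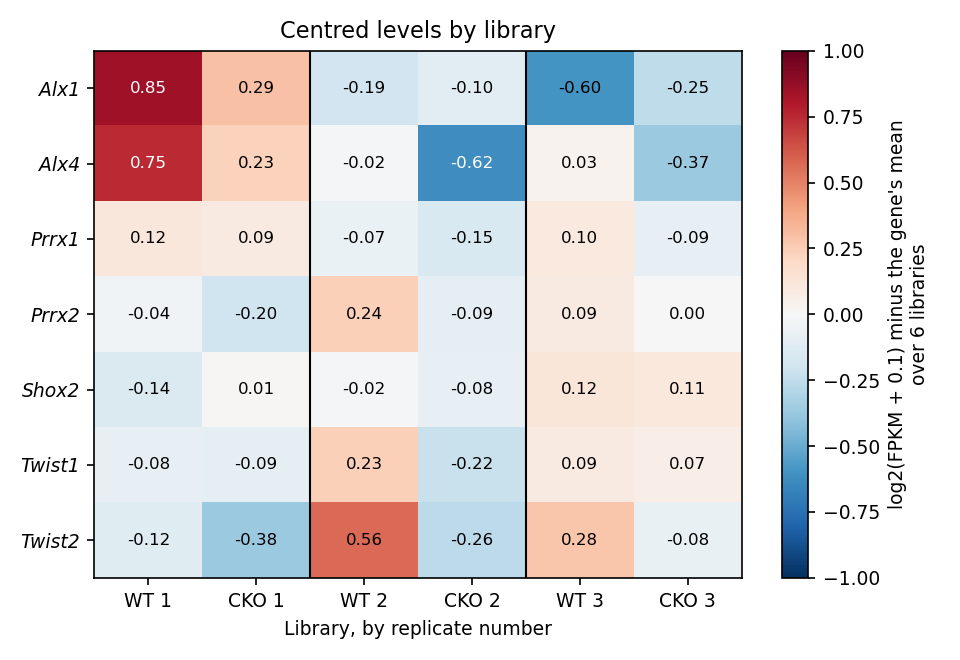
Level of each gene in each library as log2(FPKM + 0.1) minus the gene's mean over the 6 libraries (colour and printed value), with libraries ordered by replicate number. *Alx1* and *Alx4* are highest in WT replicate 1, at 0.85 and 0.75, while *Twist2* is highest in WT replicate 2, at 0.56.

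*Prrx1* (ENSMUSG00000026586; chr1:163245119-163313710, minus strand), whose regulatory sequence drives the Cre, had 62.0, 54.5 and 61.2 FPKM in WT and 60.8, 51.6 and 53.9 FPKM in CKO limb buds. CKO replicate 1 lay within the WT values and the other CKO libraries below them. The log2 difference was -0.10 (95% interval -0.39 to 0.19, adjusted *p* = 0.88; 0.66 with the block), from 10926 to 14769 reads per library. Within numbers 1, 2 and 3 it was -0.03, -0.08 and -0.18.

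*Prrx2* (ENSMUSG00000039476; chr2:30834972-30881251, plus strand) had 44.7, 54.3 and 48.9 FPKM in WT and 39.8, 43.2 and 45.8 FPKM in CKO limb buds. Only CKO replicate 3 reached into the WT range, above WT replicate 1. The log2 difference was -0.20 (95% interval -0.49 to 0.09, adjusted *p* = 0.74; 0.35 with the block), and -0.17, -0.33 and -0.10 within numbers 1, 2 and 3. The share of *Prrx2* in the summed FPKM of *Prrx1* and *Prrx2* was 45.4% ± 4.10 in WT and 43.7% ± 3.56 in CKO, with an exact permutation *p* of 0.6 for the log2 ratio. The genes most like *Prrx1* were *Nr2c1*, *Cask* and *Gng12* at 0.017, 0.019 and 0.020, and those most like *Prrx2* were *Arfgap2*, *Apbb1* and *Cyhr1* at 0.017, 0.026 and 0.028. With the block, the interval of the difference was -0.33 to 0.14 for *Prrx1* and -0.43 to 0.04 for *Prrx2*.

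*Shox2* (ENSMUSG00000027833; chr3:66971727-66981771, minus strand) had 77.1, 84.1 and 92.8 FPKM in WT and 86.1, 80.5 and 91.7 FPKM in CKO limb buds. All CKO values lay within the WT range. The log2 difference was 0.03 (95% interval -0.27 to 0.33, adjusted *p* = 0.97; 0.92 with the block), and 0.16, -0.06 and -0.02 within numbers 1, 2 and 3. Its sign was negative under quantile normalization and when WT replicate 1 or CKO replicate 3 was left out. It was also negative, at -0.08, with equal FPKM sums outside the erythroid markers, where the median of all genes was -0.10. The genes most like it were *Fto*, *Terf2ip* and *Msrb3*, at 0.029, 0.031 and 0.032. The exons of *Shox2* share 153 bases with *Rsrc1* on the opposite strand.

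**Figure D3:**
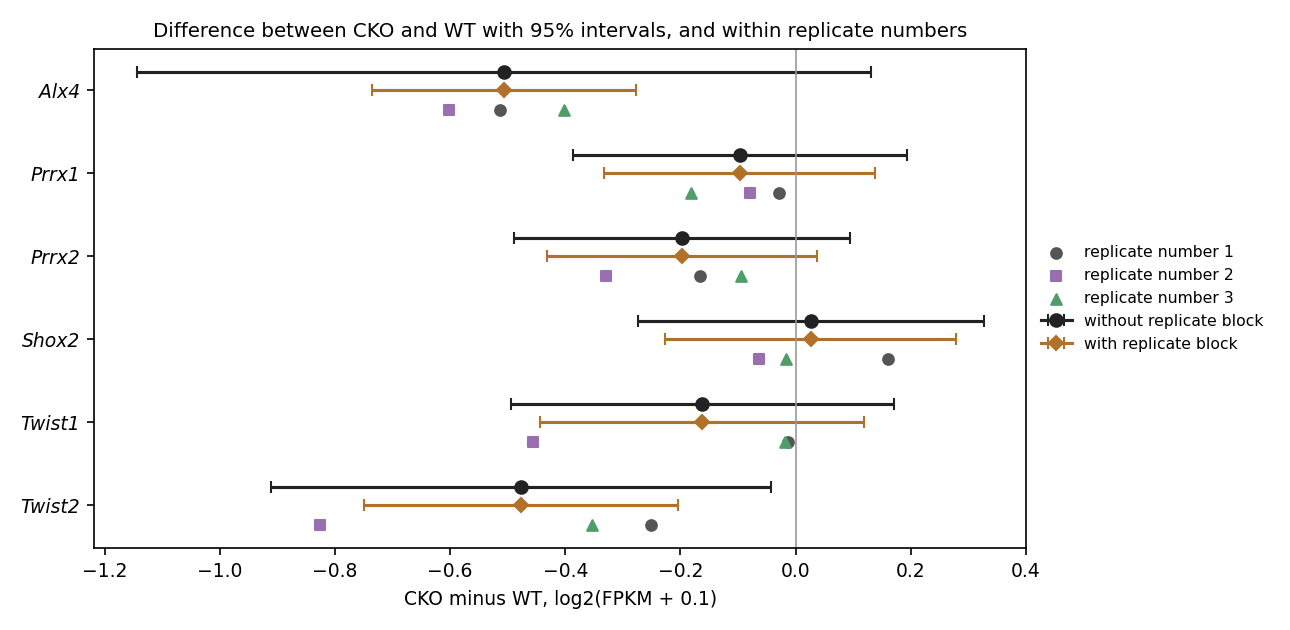
CKO minus WT on the log2(FPKM + 0.1) scale (horizontal axis) for the 6 tested genes. Black circles and brown diamonds are the limma estimates without and with the replicate block, bars are 95% intervals, and the lower symbols of each gene are the differences within replicate numbers 1, 2 and 3; the estimates of *Alx4* and *Twist2* are -0.51 and -0.48, and the intervals with the block lie below 0 for these 2 genes.

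The differences within numbers were largest in number 2 for *Alx4*, *Prrx2*, *Twist1* and *Twist2*. The median over the 6 tested genes was -0.10, -0.39 and -0.14 within numbers 1, 2 and 3, while that of all genes tested was -0.01, 0.0014 and 0.0014. In the same libraries, the 12 erythroid markers, mainly globin genes, took 19.6% of the summed FPKM in WT replicate 2 and 32.6% in CKO replicate 2. They took 13.8% and 11.8% in number 1 and 20.7% and 23.7% in number 3. When libraries were scaled to equal FPKM sums outside these markers, the median difference of all genes moved to -0.10, that of the 6 genes to -0.29, that of *Alx4* to -0.61 and that of *Twist2* to -0.58. Such a scaling shifts all genes of a library alike, so it leaves differences relative to the median of all genes nearly as they were by construction, and the part of the erythroid share in these differences was not tested. With the same scaling and the block, a combination added after the values were seen, the adjusted *p* value was 0.012 for *Alx4* and 0.032 for *Twist2*. Of all 12305 genes, that fit called 95 higher and 367 lower, against 139 and 207 with the block alone. Its test against 0 includes the shift of -0.10 in the median of all genes.

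The other genes of the pathways were taken from lists written with earlier results of these data known. Without the block, limma called 0 of the 100 list genes tested, as did voom for the 91 of them with recovered reads, while 8 of the 100 (8.0%) had an unadjusted *p* value under 0.05 against 8.31% of all genes. Of the 13 bHLH factors and Id inhibitors related to Twist, 12 were tested, 2 had higher and 10 lower fitted levels in CKO, and the median difference was -0.11. By limma, 1 of the 12 had an unadjusted *p* value under 0.05 without the block and 3 with it, against 8.31% and 18.4% of all genes. *Id4*, an inhibitor of E proteins, passed the threshold with the block (adjusted *p* = 0.028) and was lower, a result shared by 1.68% of genes. It had 3.96, 3.73 and 4.44 FPKM in WT and 3.36, 1.76 and 1.87 FPKM in CKO, without overlap. The E protein genes *Tcf3*, *Tcf4* and *Tcf12*, the dimer partners of Twist1 and Twist2, had differences of -0.11, -0.11 and 0.02, and did not pass in either model.

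Of 21 other paired-class homeobox genes, 20 had a row and 5 were tested, 4 with a higher and 1 with a lower level and a median difference of 0.34. By limma, 1 of the 5 had an unadjusted *p* value under 0.05 without the block and 2 with it, against 8.31% and 18.4% of all genes. The lower gene, *Gsc*, was the 1 past the threshold with the block, where 1.68% of genes passed and were lower. It encodes goosecoid and had 10.3, 16.2 and 12.1 FPKM in WT and 7.10, 7.91 and 8.99 FPKM in CKO, without overlap (log2 difference -0.66, blocked adjusted *p* = 0.017). As in *Twist2*, its largest difference fell in number 2.

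The 16 limb genes acting with these factors, among them Shh and Fgf pathway genes, were tested for 15, with 8 higher, 7 lower and a median of 0.03, and none passed by limma on FPKM with or without the block, with 2 and 4 at an unadjusted *p* value under 0.05 without and with it, against 8.31% and 18.4% of all genes. The 10 mesenchyme state genes, which include *Snai1*, *Vim* and *Pdgfra*, gave 9 tested, 5 higher, 4 lower and a median of 0.05, and again none passed, with 0 at an unadjusted *p* value under 0.05 in either model. Of 15 other patterning factors of the limb mesenchyme, all tested, 14 were lower and 1 higher, with a median of -0.19, close to the -0.18 of the genes described here. Within numbers 1, 2 and 3 the median of these factors was 0.01, -0.37 and -0.25, so number 1 showed no decrease. The 14 include *Tbx4*, at -0.0033. In this list 1 gene had an unadjusted limma *p* value under 0.05 without the block and 4 with it, against 8.31% and 18.4% of all genes. *Tbx5* alone passed the adjusted threshold with the block (adjusted *p* = 0.0073), where 1.68% of all genes passed and were lower. With voom and the block, *Lmx1b* of this list and *Fgfr2* of the 16 limb genes above also passed. Their log2 differences were -0.43 and -0.40, and both were named after their values were seen.

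*Tbx5*, which marks the forelimb, had 20.3, 19.1 and 19.2 FPKM in WT and 15.3, 7.29 and 9.58 FPKM in CKO limb buds, without overlap. *Pitx1*, which marks the hindlimb and was named here after its values were seen, had 37.7, 46.6 and 39.8 FPKM in WT and 48.9, 47.9 and 49.9 FPKM in CKO (log2 difference 0.25, adjusted *p* = 0.66; 0.27 with the block). *Tbx4*, a second hindlimb marker named in the same way, had a log2 difference of -0.0033 (95% interval -0.34 to 0.34). RNA of forelimb and hindlimb markers was present in every library, and the part of the forelimb share in the differences of *Alx4* and *Twist2* was not tested.

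**Figure D4:**
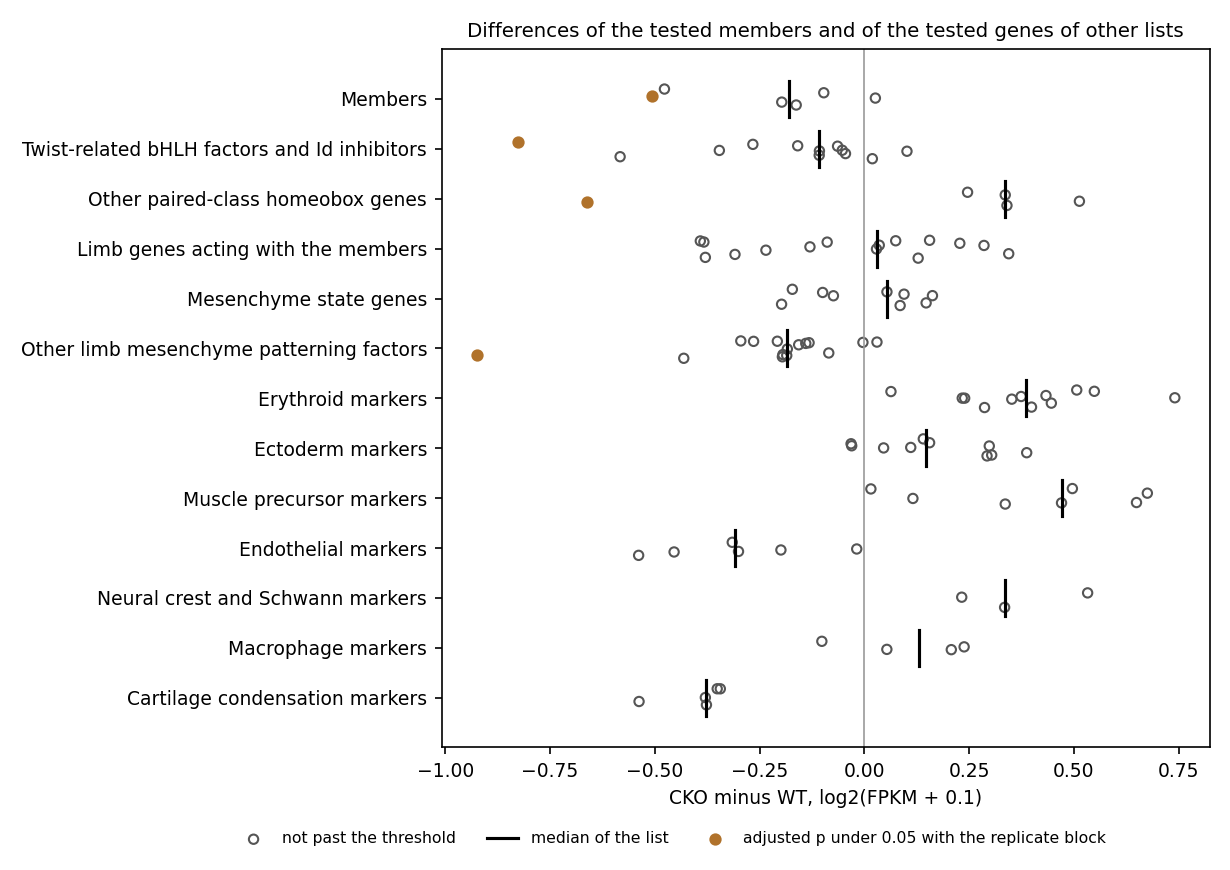
CKO minus WT on the log2(FPKM + 0.1) scale for the 6 tested genes (top row, Members) and the tested genes of 12 other lists (1 circle per gene, spread vertically for legibility), with the median of each list as a black bar. Filled circles passed an adjusted *p* value of 0.05 with the replicate block: *Alx4*, *Id4*, *Gsc* and *Tbx5*.

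Markers of other cells of the bud were present in every library and by limma on FPKM 0 of the 47 tested passed the threshold with or without the block, with 4 and 13 at an unadjusted *p* value under 0.05, again against 8.31% and 18.4% of all genes. Voom called 0 of them without the block and 5 with it, *Hbb-bt*, *Hba-a2*, *Met*, *Tie1* and *Col9a1*. With the block, voom called 567 of 11030 genes. All 12 erythroid markers had higher fitted levels in CKO (median 0.39), and their summed FPKM ranged from 37850 to 64060 in WT and from 30880 to 143000 in CKO. For the 10 ectoderm markers, 8 were higher (median 0.15), with sums of 49.1 to 80.4 in WT and 54.1 to 82.4 in CKO. For muscle precursors, 7 of 8 markers were tested and all were higher (median 0.47), with sums of 27.4 to 44.5 and 41.9 to 48.5. All 6 endothelial markers were lower (median -0.31), with sums of 21.0 to 30.3 and 15.0 to 24.1. All 5 tested of 7 cartilage condensation markers were lower (median -0.38), with sums of 92.4 to 147 and 87.8 to 102. Of 5 neural crest and Schwann markers 3 were tested and all were higher (median 0.33), with sums of 3.28 to 7.94 and 6.56 to 8.29, and of 6 macrophage markers 4 were tested and 3 were higher (median 0.13), with sums of 8.82 to 12.3 and 9.20 to 13.9. Within numbers 1, 2 and 3 the erythroid medians were -0.31, 0.98 and 0.44, and the endothelial ones -1.01, 0.17 and -0.08. They were 0.04, 0.31 and -0.01 for ectoderm, 0.88, 0.02 and -0.07 for neural crest, and 0.07, 0.56 and -0.34 for macrophage markers. Only muscle precursor (0.33, 0.19 and 0.20) and cartilage markers (-0.06, -0.70 and -0.60) kept the same sign. None of these markers was at 0 in all libraries, the sums overlapped between the groups for each list, and their part in the differences of the 7 genes was not tested.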

How the data were processed

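Only the mRNA-seq of 3 WT and 3 CKO limb bud samples was used; the ATAC-seq, the CUT&RUN and the Hi-C of the study were not analysed here. FPKM per gene were deposited by the authors, from stranded libraries; the roles of the tools in their processing notes, HISAT2 2.1.0 and featureCounts 1.6.3 among them, are not given in the sources used here. Of the identifiers, 99.9% matched GENCODE vM21 (GRCm38). FPKM times merged exon length gave whole reads in all libraries for 92.7% of genes (within 0.1 reads). The library sizes were 18026062 to 23935514, and the reads on listed genes came to 0.947 to 1.11 times these, which shows a rescaling between libraries in the deposited values.

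log2(FPKM + 0.1) was compared with limma 3.58.1 (R 4.3.3; lmFit, eBayes with trend) where the mean FPKM reached 0.5, with Benjamini-Hochberg adjustment over all 12305 such genes. The code was tested on simulated data. The libraries carry the numbers 1 to 3 in each group. Deviations from the group means correlated across genes at 0.64, 0.44 and 0.27 for equal numbers. Equal numbers were treated as pairs only in the model with the replicate block, which was an alternative to the main model. Unequal numbers correlated at -0.60 to -0.38 where number 1 was involved, but WT replicate 2 with CKO replicate 3 gave 0.49 and WT replicate 3 with CKO replicate 2 gave 0.31, above the values for numbers 2 and 3 themselves, so the pairing rests on number 1; what a number stands for is not given in the sources used here. The limma *p* values weigh the difference between groups against the spread between these samples. With the block they weigh it against the spread of the differences within numbers.

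Alternatives were other pseudocounts, filters and scalings, the block, limma voom on recovered reads and left-out libraries. The members and lists were chosen with earlier results of these data known, and 1 gene of a list is not reported here. Named besides the 7 genes are *Hnrnpk*, list genes past the adjusted threshold in either model (at most 3 per list), E protein genes for their role, and for each tested gene the 3 with the smallest mean absolute difference of centred levels. Outside this rule, *Pitx1* and *Tbx4* were named after their values were seen. List and marker genes past the threshold only by voom with the block, among them *Lmx1b* and *Fgfr2*, are named too. So are genes that share exon bases with the 7 genes and examples of list contents.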

Additional observations from a re-analysis of the deposited data

How the results depend on the processing

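All genes past the adjusted threshold numbered 8 in the model without the block (1022 at an unadjusted *p* under 0.05), 14 under quantile normalization, 4 with equal FPKM sums outside the erythroid markers, 346 with the replicate block, 567 with limma voom and the block, 1851 from replicates 2 and 3 alone and 1 to 23 with each library left out in turn. These counts were out of 12305 genes tested, or 11030 for voom. Of the 6 tested genes, 0 passed without the block, 1 (*Alx4*) with the block, 2 (*Alx4* and *Twist2*) with voom and the block and from replicates 2 and 3 alone, and 0 with any library left out. At an unadjusted *p* under 0.05 stood 1 gene, 2 under quantile normalization, with equal sums outside the erythroid markers, with the block, with voom and the block and from replicates 2 and 3 alone, and 0 to 1 with a library left out; the share of all genes was 8.31%, 8.34%, 8.05%, 18.4%, 20.2%, 29.0% and, with a library left out, 4.17% to 19.6%. The groups did not overlap for 0 genes, 1 under quantile normalization, 2 with equal sums outside the erythroid markers, 5 from replicates 2 and 3 alone and 0 to 3 with a library left out, where groups are smaller by construction; the share of all genes was 14.5%, 14.1%, 13.8%, 58.5% and 18.0% to 42.0%. The median of the 6 genes stayed between -0.29 and -0.14 in the planned settings, and was not computed for the settings added later. Added after the data were seen, the block with equal sums outside the erythroid markers gave 462 genes and 2 of the 6, and the block without both libraries of number 1, 2 or 3 gave 2280, 89 and 208 genes and 2, 0 and 0 of the 6. The log2 difference of *Shox2* reversed to -0.082 under quantile normalization, to -0.080 with equal sums outside the erythroid markers (with and without the block; the median of all genes was then -0.099, so its difference relative to that median was not reversed), to -0.040 from replicates 2 and 3 alone and also with the block without number 1, and ranged from -0.039 to 0.094 with a library left out. *Alx4*, *Prrx1*, *Prrx2*, *Twist1* and *Twist2* had negative differences in each of their 22 alternatives. No other call of these genes changed with the block. The cause of the changes between settings was not tested. *Alx1*, with 32 to 90 reads per library, had the fewest reads, and whether depth or the spread between samples sets its interval was not tested.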
